A study of Mus musculus with 16 samples.

Results

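Transcription factor genes were among those that separated the wild type cerebellum from the remainder of the wild type brain. Barhl1, Barhl2, Zic2 and Lhx1, transcription factor genes of cerebellar neurons, were seen on each of the 4 wild type (WT) cerebellum arrays and on none of the 4 WT rest-of-brain arrays. Dlx1, Dlx5, Emx1, Fezf2, Tbr1 and Lhx6, transcription factor genes of the forebrain, were detected on all 4 rest-of-brain arrays and on no cerebellum array. On the 8 arrays of the mutant mice, Lhx6 was also detected on 1 cerebellum array and the other 9 genes had the same pattern. The members of the comparison are those genes detected on at least 3 of the 4 arrays of one brain part and on 0 of 4 of the other. There were 104 such genes on the cerebellum side (0.572% of the 18194 genes on the array) and 124 on the rest-of-brain side (0.682%).

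The study profiled brains of WT and SINE KO littermates with Affymetrix 3' expression arrays, using 2 arrays for each of 8 groups (genotype by sex by brain part) and so 16 in all. The comparison uses the 8 WT arrays: 2 females and 2 males for the cerebellum (cb) and 2 females and 2 males for the rest of the brain (Br), which is the whole brain without the cerebellum. WT mice carry the intact allele. SINE KO mice are homozygous for a small deletion just past the presumed start codon in the SINE exon of a brain isoform of Ppargc1a (Pgc1α), all from 1 founder line on a C57BL/6J background, and no group received a treatment. Littermates were matched for age, which the labels do not give. Brain stem remnants were removed by gross dissection before each brain was split. Neither the labels nor the methods tell if same-numbered arrays of both brain parts come from 1 mouse, and p-values measure only the spread between these arrays. Arrays are called here by sex and replicate number, such as cerebellum female 2.

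The values take 5 levels in place of intensities, and the highest level was read as detected. A call carries no amount, and the level of a gene detected in both brain parts may still differ. A gene counted as detected where any probe set (a group of probes that reads 1 transcript) carrying its symbol alone was detected. Per WT array, 26368 to 28155 of 45101 probe sets were detected. Precision is limited by the number of arrays, 4 a side. The cerebellum arrays detected 26802 ± 347 probe sets and the rest-of-brain arrays 27161 ± 669 (SD, n = 4 each), a difference of -358.75 that the exact permutation test over 70 arrangements did not separate (two-sided p = 0.457, with 0.0286 the smallest possible). The highest total came from rest-of-brain female 2, and without it the difference was -27.3. No 2 WT arrays held the same values (4052 to 5912 probe sets at another level per pair), and the Y-linked genes Eif2s3y, Uty and Kdm5d were detected on all 4 WT male arrays and on 0 of 4 WT female arrays. Xist, the other sex-linked gene looked at, was detected on all 4 WT female arrays and also on all 4 WT male arrays. Its calls thus did not separate the sexes.

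One array stood apart. Of the genes detected on all 4 cerebellum arrays and no rest-of-brain array of the mutants (76 genes), 22 were missing on WT cerebellum female 2 alone and otherwise had the full WT pattern, against 0 to 2 genes for each of the other 3 cerebellum arrays. Among the 149 genes with the full opposite pattern in the mutants, 28 were detected on cerebellum female 2 as the lone WT cerebellum array, against 2 or 3 for each of the others. More genes of the rest-of-brain pattern were thus seen on this array, and fewer of the cerebellum pattern, than on the other 3. Whether other brain tissue or RNA was present in that specimen was not tested. The counts of members, their shares on the KO arrays and the list shares that did not overlap are given with and without it.

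The cerebellum is built from a few neuron types in very unequal numbers. Granule cells make up most of its neurons and send parallel fibres to the Purkinje cells, the inhibitory output neurons of its cortex, while unipolar brush cells and Bergmann glia are less common. In the forebrain, excitatory neurons of the cortex derive from precursors that express Emx genes, and many inhibitory neurons from precursors that express Dlx genes. Adult neurons keep part of these programmes. The rest of the brain pools cortex, hippocampus, striatum, thalamus, hypothalamus and midbrain. In such bulk specimens, fewer cells of a type and less RNA per cell cannot be told apart, and a gene of a small nucleus may fall below detection.

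Starts of 6 of the genes are shown as examples of each side, since their calls carry the contrast described in the next paragraphs. They are a pair of homeobox genes and a parallel fibre gene of the cerebellum (Barhl1, Barhl2, Fat2) and a pair of cortical transcription factor genes and a hippocampal receptor gene (Emx1, Tbr1, Mas1). Each sequence is the 250 bases before the start of transcription on the gene's own strand, from RefSeq on GRCm38.p6: chr2:28916669-28916918 (minus strand), chr5:106458167-106458416 (minus), chr11:55312258-55312507 (minus), chr6:85187681-85187930 (plus), chr2:61804203-61804452 (plus) and chr17:12868144-12868393 (minus). Capitals mark each CG dinucleotide and each TAATTA, the palindromic core that many homeodomain proteins bind.
Barhl1: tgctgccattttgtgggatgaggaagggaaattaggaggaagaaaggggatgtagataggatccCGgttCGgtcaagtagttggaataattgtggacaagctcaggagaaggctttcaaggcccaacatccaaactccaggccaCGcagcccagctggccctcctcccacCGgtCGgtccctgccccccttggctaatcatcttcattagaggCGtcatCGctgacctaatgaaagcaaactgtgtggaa
Barhl2: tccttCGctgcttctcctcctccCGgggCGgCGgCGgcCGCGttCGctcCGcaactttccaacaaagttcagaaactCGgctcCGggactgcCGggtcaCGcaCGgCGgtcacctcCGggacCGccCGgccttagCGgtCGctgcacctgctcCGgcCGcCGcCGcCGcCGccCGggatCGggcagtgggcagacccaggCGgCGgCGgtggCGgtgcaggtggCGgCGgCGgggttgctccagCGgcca
Fat2: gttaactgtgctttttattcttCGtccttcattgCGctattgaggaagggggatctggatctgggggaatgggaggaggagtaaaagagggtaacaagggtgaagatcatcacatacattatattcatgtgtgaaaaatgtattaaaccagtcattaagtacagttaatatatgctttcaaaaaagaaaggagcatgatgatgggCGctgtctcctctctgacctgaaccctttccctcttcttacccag
Emx1: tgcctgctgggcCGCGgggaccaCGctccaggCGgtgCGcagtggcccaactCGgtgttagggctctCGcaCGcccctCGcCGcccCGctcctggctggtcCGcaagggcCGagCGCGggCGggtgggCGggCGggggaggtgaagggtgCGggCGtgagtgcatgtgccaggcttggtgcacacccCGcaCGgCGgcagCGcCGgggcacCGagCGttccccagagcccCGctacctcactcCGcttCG
Tbr1: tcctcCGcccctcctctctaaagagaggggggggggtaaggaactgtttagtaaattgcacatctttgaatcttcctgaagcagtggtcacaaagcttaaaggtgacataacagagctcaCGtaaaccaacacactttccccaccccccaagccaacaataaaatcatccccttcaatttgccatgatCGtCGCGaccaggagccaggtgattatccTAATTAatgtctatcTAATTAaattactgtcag
Mas1: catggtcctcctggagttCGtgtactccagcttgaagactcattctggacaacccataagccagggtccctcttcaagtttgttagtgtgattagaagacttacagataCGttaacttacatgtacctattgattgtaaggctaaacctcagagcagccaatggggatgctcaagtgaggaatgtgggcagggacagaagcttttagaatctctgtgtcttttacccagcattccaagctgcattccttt

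The sequences differed widely within each side. On the cerebellum side, the window of Barhl2 held 36 CG dinucleotides, that of Barhl1 held 7 and that of Fat2 held 3. Barhl1 had 2 windows, and these counts are for the 1 shown above. On the other side, the window of Emx1 held 30, that of Tbr1 held 5 and that of Mas1 held 2. Over all 32851 such windows of the RefSeq table the median was 6 and the quartiles were 2 and 16. TAATTA (searched on both strands, which read the same) occurred at 2 places before Tbr1 and in none of the other 5 windows, and 4.84% of all windows held it. Of the 62 genes named by rule, 47 had a window, and 3 of these held TAATTA (Tbr1, Robo3 and Rassf6). Windows were found for 77.9% of the cerebellum-only genes and 79.8% of the rest-of-brain-only genes, both under 80%, so a comparison of the sides by sequence is void and was not made.

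Most genes did not separate the brain parts. Of the 18194 genes, 11083 (60.9%) were detected on all 8 WT arrays, 4174 on none and 2937 on some of them. Of the 104 cerebellum-only genes, 21 were seen on each of the 4 cerebellum arrays and 83 on 3 of them. Of the 124 rest-of-brain-only genes, 79 were detected on all 4 arrays of their side and 45 on 3. The cerebellum side thus rested mostly on 3 arrays, and the array that missed was cerebellum female 2 for 50 of the 83, against 7 for female 1, 14 for male 1 and 12 for male 2. On the rest-of-brain side the missing array was spread over female 1 (12 genes), female 2 (3), male 1 (14) and male 2 (16). Requiring 3 of the remaining 3 cerebellum arrays without cerebellum female 2 gave 71 cerebellum-only genes, and requiring 0 of 3 gave 223 rest-of-brain-only genes. Without cerebellum female 1, male 1 or male 2, in contrast, 28, 35 and 33 cerebellum-only genes were left. Rest-of-brain-only genes then numbered 164, 145 and 148. Without rest-of-brain female 2, 82 rest-of-brain-only genes were left.

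At the level of probe sets, 294 were cerebellum-only (0.652% of 45101) and 355 rest-of-brain-only (0.787%). All 4 arrays of the side detected 68 of the former and 196 of the latter. Just outside the rule lay 415 probe sets on 2 cerebellum arrays and no rest-of-brain array, 344 in the mirror position, 119 on 4 cerebellum arrays and 1 rest-of-brain array, and 287 on 4 rest-of-brain arrays and 1 cerebellum array. Fisher's exact test of each probe set, 4 against 4 arrays and two-sided, had 264 probe sets at an unadjusted p under 0.05 and called 0 after Benjamini-Hochberg adjustment, since its smallest possible p was 0.0286. Only a split of 4 against 0 arrays reaches a p under 0.05. The 264 are therefore the same 68 and 196 probe sets, and the test restates the rule without adding support. Limited to the 1130 probe sets detected on 4 of the 8 arrays, it also called 0, with a smallest adjusted p of 0.122.

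**Figure D1:**
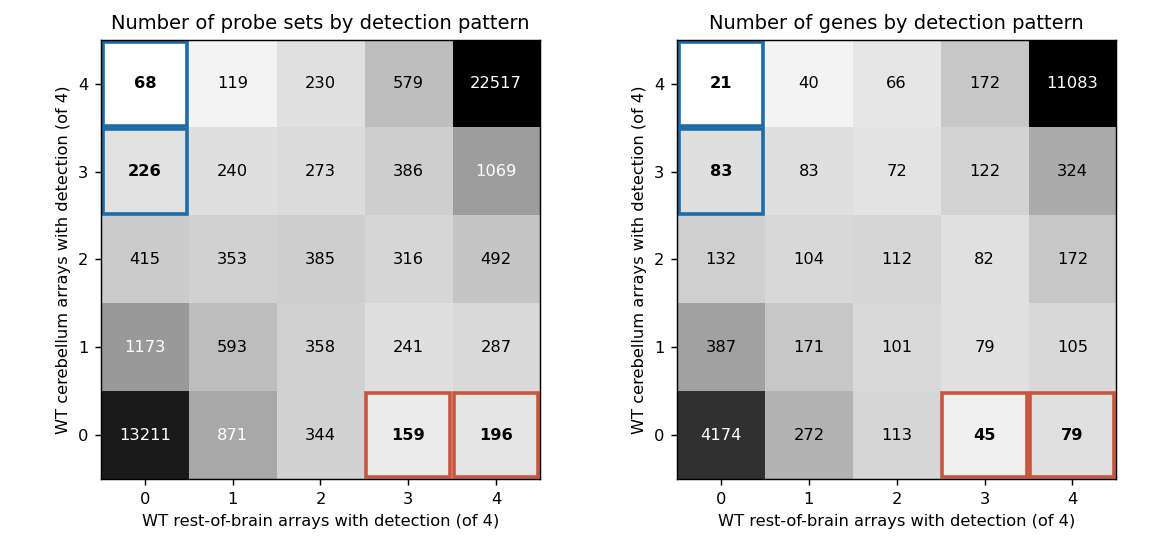
Number of probe sets (left) and genes (right) by how many of the 4 WT cerebellum arrays (vertical axis) and 4 WT rest-of-brain arrays (horizontal axis) detected them, with darker cells for higher numbers on a log scale. Outlined cells hold the members: 21 and 83 genes on the cerebellum side (blue) and 79 and 45 on the rest-of-brain side (red), beside 11083 genes detected on all 8 arrays and 4174 on none.

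The 8 arrays of the SINE KO mice gave the same comparison in other mice. Of the 104 cerebellum-only genes, 42 (40.4%) met the same rule there, against 0.643% of all genes. Of the 124 rest-of-brain-only genes, 74 (59.7%) did, against 1.2% of all genes. Detection was on more KO arrays of the gene's own side for 84 of 104 cerebellum-only and 113 of 124 rest-of-brain-only genes, and on more arrays of the other side for 8 and 3. No member met the rule in the opposite direction. Among rest-of-brain-only genes the share was 74.7% for those seen on all 4 WT arrays of their side and 33.3% for those seen on 3, and among cerebellum-only genes it was 42.9% and 39.8%. For probe sets the shares were 44.2% of 294 and 57.5% of 355, against 0.836% and 1.34% of all probe sets. Members chosen without cerebellum female 2 had shares of 53.4% of 204 and 49.9% of 573 probe sets, and 49.3% of 71 and 50.7% of 223 genes. The order of the sides by this share thus did not hold without that array for probe sets, and for genes the shares lay close together. Without cerebellum female 1, male 1 or male 2, the rest-of-brain share of probe sets was also lower, at 48.6, 45.8 and 50.4%. The cerebellum share was then 46.2, 36.5 and 40.2%, so the order of the sides held. Genotype differs between the sets of arrays, and a change with genotype in single genes was not tested.

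Each KO array lay on the side its label names. The 4 KO cerebellum arrays detected 70.1 to 84.7% of the WT cerebellum-only probe sets and the 4 KO rest-of-brain arrays 10.2 to 22.8%. Of the WT rest-of-brain-only probe sets, the KO rest-of-brain arrays detected 74.9 to 80.6% and the KO cerebellum arrays 8.45 to 14.9%. Turned round, the probe sets that met the rule on the KO arrays give a reading of the WT arrays that the WT calls did not choose. Of the 377 KO cerebellum-only probe sets, WT cerebellum female 1 detected 62.3%, male 1 85.1% and male 2 62.6%, but female 2 only 33.2%. The 4 WT rest-of-brain arrays detected 8.22 to 16.4% of them, so female 2 lay above those arrays and below the other cerebellum arrays. Of the 605 KO rest-of-brain-only probe sets, cerebellum female 2 detected 38.7%, female 1 19.3%, male 1 16.2% and male 2 17.5%, while the WT rest-of-brain arrays detected 72.6 to 88.9%.

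**Figure D2:**
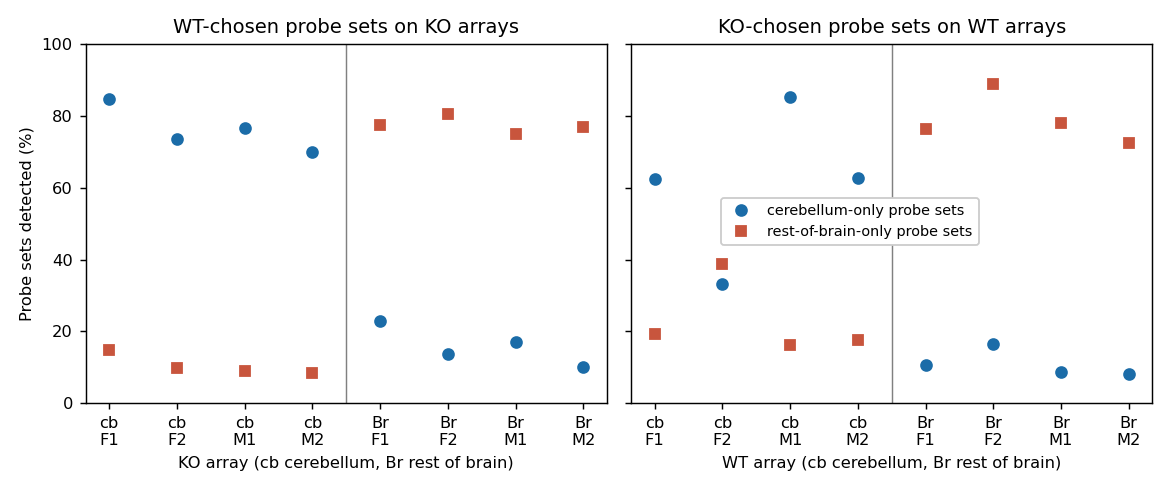
Percent of side-specific probe sets detected on each array (horizontal axis, F female and M male with the replicate number), with cerebellum-only sets as blue circles and rest-of-brain-only sets as red squares. Left, sets chosen on the WT arrays and read on the KO arrays; right, sets chosen on the KO arrays and read on the WT arrays, where cerebellum female 2 detected 33.2% of the first kind and 38.7% of the second.

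The 28 genes seen on cerebellum female 2 alone among the WT cerebellum arrays included neuronal genes of several brain regions. Drd1, the dopamine receptor of striatal direct-pathway neurons, Slc6a3, the transporter of midbrain dopamine neurons, Icam5 (telencephalin, an adhesion molecule of forebrain neurons), C1ql2, a synaptic organiser of the dentate gyrus, and the potassium channel subunit genes Kcnv1 and Kcng1 were among them. So were Ntsr1, a neurotensin receptor of deep cortical neurons, and Htr1f, a serotonin receptor. Conversely, the 22 genes missing on this array alone included Tmem266, Svep1, Tlx3, the sodium-glucose transporter gene Slc5a1 and Mybpc3, which codes for a myosin-binding protein. These examples were chosen after their calls were seen.

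**Figure D3:**
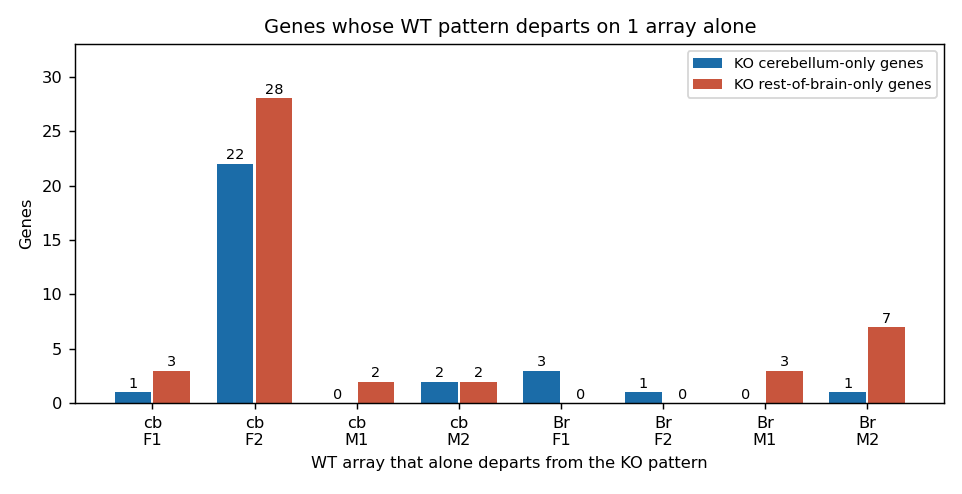
Number of genes whose WT calls depart on exactly 1 array (horizontal axis) from the pattern that all 8 KO arrays hold, for genes on 4 of 4 KO cerebellum and 0 of 4 KO rest-of-brain arrays (blue) and the reverse (red). Cerebellum female 2 has 22 and 28 such genes, and the next highest bar is 7 genes for rest-of-brain male 2.

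Granule cell genes were the largest named group on the cerebellum side. Of the 32 listed granule cell genes on the array, 6 were cerebellum-only, none was rest-of-brain-only and 19 were detected on all 8 WT arrays. Barhl1, a homeobox gene that granule cells need for migration and survival, its relative Barhl2, and Zic2, a zinc finger gene of the granule cell lineage, were detected on all 4 cerebellum arrays and 0 of 4 rest-of-brain arrays in both genotypes. Fat2, a giant protocadherin of parallel fibres, was detected on cerebellum female 1, male 1 and male 2, not on female 2, and on 0 of 4 rest-of-brain arrays. Tmem266, a voltage-sensing membrane protein, and Svep1, an extracellular matrix protein, were missing on the same array. On the KO arrays, Tmem266 and Svep1 had the full pattern, whereas Fat2 was detected on all 4 cerebellum arrays and also on rest-of-brain female 1. Barhl1 was read by 2 probe sets, of which 1 met the rule, and the other 5 genes by 1 each.

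Several defining granule cell genes did not separate the parts. Gabra6, the GABA-A receptor subunit of granule cells, and Cbln3, a granule cell cerebellin, were detected on all 4 cerebellum arrays but also on the 2 male rest-of-brain arrays. Pcp2, the Purkinje cell protein, was seen on exactly the same WT arrays. Of the 3 probe sets of Pcp2, however, 2 met the rule, each on 3 cerebellum and 0 rest-of-brain arrays. The remaining probe set was on 4 and 2. On the KO arrays the 2 that met the WT rule were each on 4 cerebellum arrays and 1 rest-of-brain array. In the mutants all 3 genes were on all 4 cerebellum arrays. Gabra6 and Cbln3 were also on 3 KO rest-of-brain arrays (female 1, male 1 and male 2), and Pcp2 was on 2 (female 1 and male 1). Neurod1, a proneural gene of granule cells and of hippocampal neurons, was on all 8 WT arrays. Whether the WT male or the KO rest-of-brain specimens kept cerebellar tissue was not tested. The list as a whole had 94.5 ± 6.93% of its genes detected per cerebellum array and 68.0 ± 7.81% per rest-of-brain array (SD, n = 4 each), with no overlap. Cerebellum female 2 was the lowest of its side at 84.4%, and the other 3 lay between 96.9 and 100% (97.9 ± 1.80%, n = 3). In number, 12 of the 32 genes were on more cerebellum than rest-of-brain arrays and none the other way, against 6.38% and 7.54% of all genes.

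Among the 26 listed Purkinje cell genes, 18 were detected on all 8 WT arrays and 2 were cerebellum-only (0.572% of all genes were). In number, 7 were on more cerebellum than rest-of-brain arrays and none the other way, against 6.38% and 7.54% of all genes. Lhx1, a LIM homeobox gene of Purkinje cells, was detected on all 4 cerebellum arrays and none of the rest of the brain in both genotypes, and both of its probe sets met the rule. Grid2ip, which codes for delphilin, a partner of the glutamate receptor at parallel fibre synapses, was detected on 3 cerebellum arrays (not male 2) and on 0 rest-of-brain arrays. In the mutants it was on 3 cerebellum and 2 rest-of-brain arrays, so its WT pattern did not recur there. Calb1 and Car8, abundant in Purkinje cells, were on all 8 WT arrays, and Ppp1r17 was on 3 of each part. Over the list, 96.2 ± 5.44% of genes were detected per cerebellum array and 80.8 ± 4.44% per rest-of-brain array, without overlap. Cerebellum female 2 stood at 88.5%, and without it the cerebellum share was 98.7 ± 2.22% (n = 3).

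The genes of rarer cerebellar cells separated less. Of 22 listed genes of interneurons, unipolar brush cells and Bergmann glia, 15 were on all 8 WT arrays and 1 was cerebellum-only. This was Eomes, the T-box gene of unipolar brush cells, on 3 cerebellum arrays (not female 2) and no rest-of-brain array, with both probe sets meeting the rule. On the KO arrays it was detected on all 4 cerebellum arrays but also on 3 rest-of-brain arrays. The list shares were 86.4 ± 3.71% and 79.5 ± 2.62% and overlapped, and they did not overlap without cerebellum female 2.

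Patterning genes of the midbrain and hindbrain differed in both directions. Of 40 on the array, 11 were on more cerebellum arrays and 9 on more rest-of-brain arrays (6.38% and 7.54% of all genes were). Among them only Tlx3, a homeobox gene of hindbrain and spinal excitatory neurons, was cerebellum-only and only Egr2, a hindbrain patterning gene that is also induced by neuronal activity, rest-of-brain-only. Tlx3 was missing on cerebellum female 2 and had the full pattern in the mutants. Egr2 was detected on 3 of 4 rest-of-brain arrays in each genotype and never in the cerebellum. The list share per WT array was 38.1 ± 11.2% for the cerebellum and 36.9 ± 8.26% for the rest of the brain. On the KO arrays it was 40 to 65% for the cerebellum and 27.5 to 37.5% for the rest of the brain. WT cerebellum female 1 stood at 55.0% against 32.5% on each of the other 3 WT cerebellum arrays. It detected 7 of the 14 Hox genes on the array, which mark the hindbrain and spinal cord. Of these, Hoxa2, Hoxa4, Hoxa5, Hoxb3, Hoxc6 and Hoxd3 were on no other WT cerebellum array, Hoxa3 was on all 8 WT arrays, and the remaining 7 Hox genes were on no WT cerebellum array. Hoxa5, Hoxb3 and Hoxd3 were each also on 2 WT rest-of-brain arrays. In the mutants, Hoxa2, Hoxa4 and Hoxa5 were each on 2 cerebellum arrays and 1 rest-of-brain array, and Hoxb3 was on 2 of each. Hoxb5, Hoxb6 and Hoxc5 were each on 2 KO cerebellum arrays and 0 KO rest-of-brain arrays. Slc6a4, the serotonin transporter of raphe neurons, was on none of the 8 WT arrays, and Tph2, the serotonin synthesis enzyme, was on WT cerebellum female 1 and on 3 WT rest-of-brain arrays. The part of brain stem tissue in these calls was not tested.

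Forebrain transcription factor genes made up the mirror image. Of 56 on the array, 6 were rest-of-brain-only, 1 was cerebellum-only, 21 were on all 8 WT arrays and 11 on none. Dlx1 and Dlx5 (inhibitory neurons of the ventral forebrain), Emx1 and Tbr1 (cortical excitatory neurons) and Fezf2 (deep-layer projection neurons) were on all 4 rest-of-brain arrays and on no cerebellum array in both genotypes. Lhx6, of cortical interneurons, had the same WT pattern, with both probe sets meeting the rule, and was detected on 1 of 4 KO cerebellum arrays. Its probe sets parted in the mutants: 1 was on 0 cerebellum and 4 rest-of-brain arrays, the other on 1 and 0. The exception was Isl2, a LIM homeobox gene of motor neurons, detected on 3 WT cerebellum arrays, on 1 KO cerebellum array and on 2 KO rest-of-brain arrays. In all, 22 of the 56 genes were on more rest-of-brain arrays and 2 on more cerebellum arrays, against 7.54% and 6.38% of all genes. The shares were 48.7 ± 4.46% per cerebellum array and 69.2 ± 2.68% per rest-of-brain array and did not overlap. Cerebellum female 2 stood at 55.4% and the other 3 at 46.4% each.

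**Figure D4:**
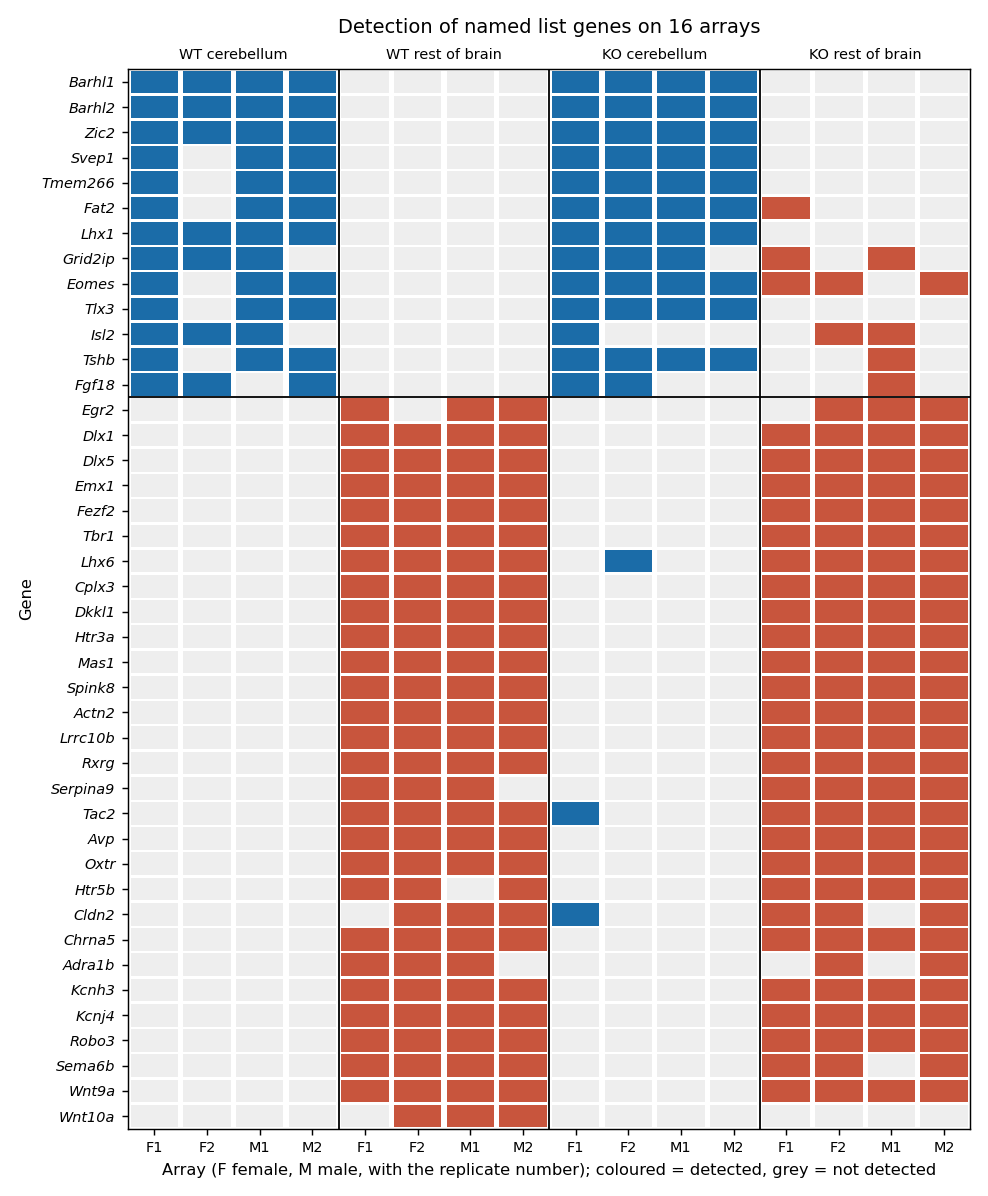
Detection calls of the list genes named by rule (rows) on the 16 arrays (columns, F female and M male with the replicate number), coloured where detected and grey where not. The first 13 rows are the cerebellum side and the rows under the line the rest-of-brain side; 6 of the 13 cerebellum genes are grey on WT cerebellum female 2.

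Genes of cortical and hippocampal neurons gave the widest gap between the list shares. Of 59, 11 were rest-of-brain-only and none was cerebellum-only. In number, 25 were on more rest-of-brain arrays and none on more cerebellum arrays, against 7.54% and 6.38% of all genes. Beside Emx1, Fezf2 and Tbr1, the full pattern in both genotypes was seen for Cplx3 (a complexin of deep cortical neurons), Dkkl1 (a dickkopf-like secreted protein), Htr3a (a serotonin-gated channel subunit of interneurons), Mas1 (a receptor for an angiotensin peptide, high in hippocampus) and Spink8 (a protease inhibitor of hippocampal neurons). The list share was 64.0 ± 5.60% per cerebellum array and 94.5 ± 0.847% per rest-of-brain array. Neurod6, another gene of cortical and hippocampal neurons, was nevertheless on all 8 arrays. Cerebellum female 2 had the highest share of its side, 71.2%, and the others lay between 57.6 and 64.4% (61.6 ± 3.53%, n = 3).

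Striatal genes followed the same direction. Of 48, 4 were rest-of-brain-only and none was cerebellum-only (0.682% and 0.572% of all genes were). In number, 14 were on more rest-of-brain arrays and 1 on more cerebellum arrays, against 7.54% and 6.38% of all genes. Actn2 (an actin-crosslinking protein of dendritic spines), Lrrc10b (a leucine-rich repeat protein) and Rxrg (a retinoid X receptor) had the full pattern in both genotypes, while Serpina9 (a serpin) was missing on WT rest-of-brain male 2 and present on all 4 KO rest-of-brain arrays. The shares were 66.1 ± 6.45% and 84.4 ± 2.08% and did not overlap, and the first was 63.2 ± 3.18% (n = 3) without cerebellum female 2. Drd3, a dopamine receptor, ran the other way, on 4 cerebellum arrays and 1 rest-of-brain array, but on none of the 8 KO arrays. This gene was singled out after its calls were seen. The 40 listed thalamic genes did not separate, with shares of 83.8 ± 4.33% and 86.2 ± 1.44%. One gene met the rule on each side (Grid2ip and Tac2), and the thalamic markers Tcf7l2 and Synpo2 were on all 8 WT arrays. Tnnt1, another thalamic marker, was on 3 WT cerebellum and 4 WT rest-of-brain arrays. In the mutants Tnnt1 was on 0 cerebellum and 4 rest-of-brain arrays.

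Neuropeptide and hypothalamic genes had lower shares on the cerebellum arrays. Of 81, 3 were rest-of-brain-only and none was cerebellum-only. In number, 30 were on more rest-of-brain arrays and 5 on more cerebellum arrays (7.54% and 6.38% of all genes were). Avp, the vasopressin precursor, and Oxtr, the oxytocin receptor, were on all 4 rest-of-brain arrays and no cerebellum array in both genotypes. Tac2, the neurokinin B precursor, had the same WT pattern and was on 1 of 4 KO cerebellum arrays. The oxytocin precursor gene Oxt was detected on 2 WT rest-of-brain arrays and on no WT cerebellum array. The share was 52.5 ± 8.10% per cerebellum array and 66.7 ± 3.63% per rest-of-brain array, with no overlap. Without cerebellum female 2 the cerebellum share was 50.2 ± 8.22% (n = 3). For dopamine, noradrenaline and serotonin neurons the shares overlapped (56.5 ± 10.0% and 66.9 ± 5.51%), and the serotonin receptor gene Htr5b, on 3 WT and 4 KO rest-of-brain arrays, was the only gene of these 31 that met the rule. The olfactory bulb list of 20 genes also overlapped, at 67.5 ± 2.89% and 73.8 ± 4.79%, and the 3 of its genes that met the rule were Barhl2, Eomes and Tbr1.

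**Figure D5:**
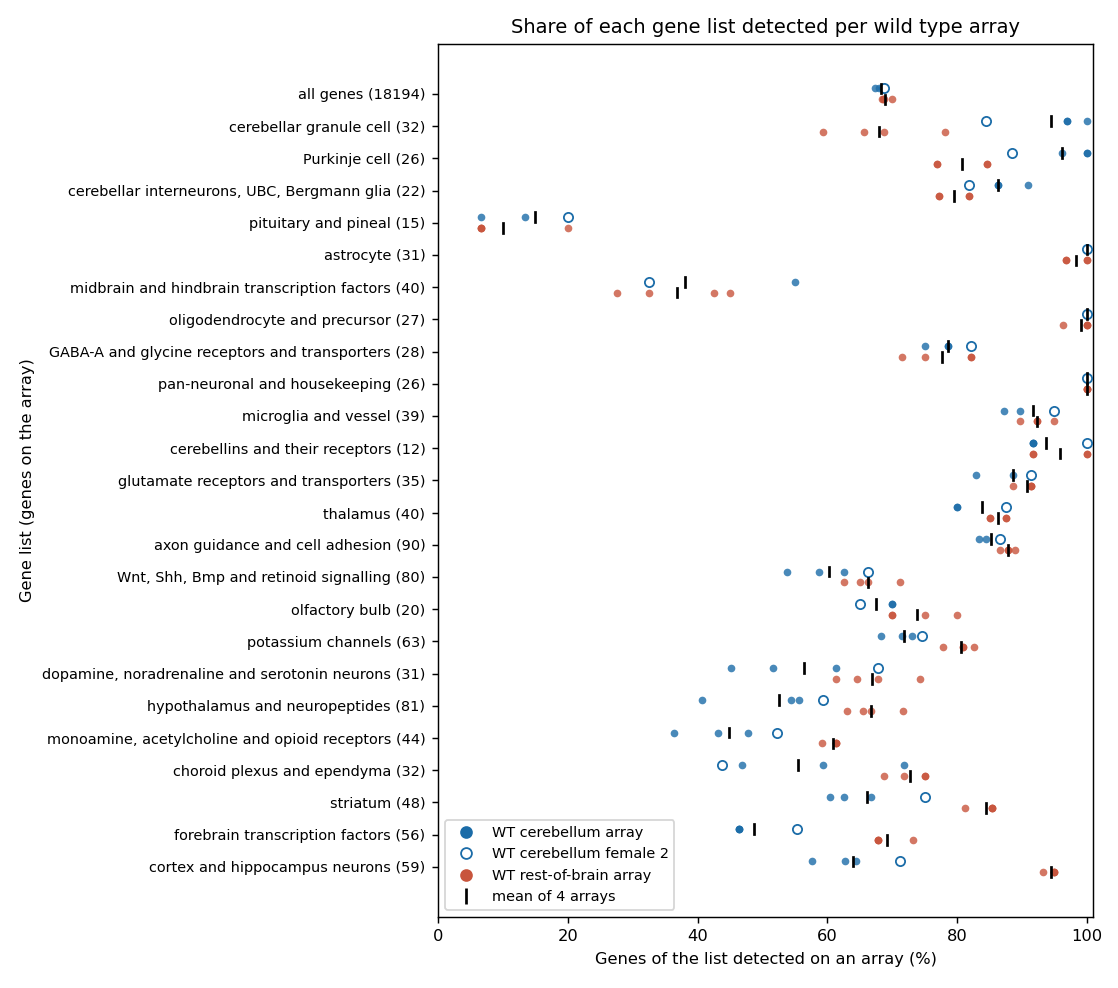
Percent of each list's genes detected per array (horizontal axis), with 1 point per WT array, blue for cerebellum and red for rest of brain, an open circle for cerebellum female 2 and a black tick for the mean of 4 arrays; equal shares lie on top of each other. The number of genes is given after each list, and the lists run from cortex and hippocampus (64.0% against 94.5%) at the bottom to granule cells (94.5% against 68.0%) near the top.

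Receptors and channels leaned to the rest of the brain. Of 44 monoamine, acetylcholine and opioid receptor genes, 4 were rest-of-brain-only and none was cerebellum-only (0.682% and 0.572% of all genes were). In number, 13 of the 44 were on more rest-of-brain arrays and 2 on more cerebellum arrays, against 7.54% and 6.38% of all genes. The shares were 44.9 ± 6.79% and 60.8 ± 1.14% without overlap. Chrna5, a nicotinic receptor subunit, and Htr3a had the full pattern in both genotypes, Htr5b is described above, and Adra1b, an adrenergic receptor, was on 3 WT and 2 KO rest-of-brain arrays. Of 63 potassium channel genes, Kcnh3 (a voltage-gated channel of forebrain neurons) and Kcnj4 (an inward rectifier) were rest-of-brain-only, both with the full pattern in both genotypes. Of the 63, 13 were on more rest-of-brain arrays and 2 on more cerebellum arrays (7.54% and 6.38% of all genes were). The channel shares were 71.8 ± 2.71% and 80.6 ± 2.0%, without overlap. With cerebellum female 2 left out, the cerebellum shares were 42.4 ± 5.72% for these receptors and 70.9 ± 2.42% for the channels (n = 3). For the main fast transmitter receptors the shares overlapped: the glutamate receptor and transporter list had 88.6% and 90.7%, and the GABA-A and glycine list 78.6% and 77.7% (77.4% and 77.7% without cerebellum female 2), and none of these 35 and 28 genes met the rule.

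Most guidance genes were detected on every WT array, and fewer of the signalling genes were. Of 90 axon guidance and adhesion genes, 72 were on all 8 WT arrays, Fat2 was cerebellum-only, and Robo3 (a receptor for midline crossing) and Sema6b (a transmembrane semaphorin) were rest-of-brain-only. Robo3 had the full pattern in both genotypes and Sema6b was missing on 1 KO rest-of-brain array. Of 80 genes of Wnt, Shh, Bmp and retinoid signalling, 37 were on all 8 WT arrays and 20 on none, the growth factor gene Fgf18 was cerebellum-only and Rxrg, Wnt9a and Wnt10a rest-of-brain-only. Wnt9a recurred fully in the mutants, whereas Wnt10a was on 3 WT rest-of-brain arrays and on none of the 8 KO arrays, and Fgf18 was on 2 KO cerebellum arrays and 1 KO rest-of-brain array. The shares of both lists overlapped between the parts.

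Genes shared by all brain regions did not separate. All 26 pan-neuronal and housekeeping genes were on all 8 WT arrays, as were 26 of 27 oligodendrocyte genes, 30 of 31 astrocyte genes and 34 of 39 microglia and vessel genes. Mbp and Mog (myelin), Gfap and Aqp4 (astrocytes), Cx3cr1 and Aif1 (microglia) and Cldn5 (vessels) were on all 8, while the probe set of the endothelial gene Pecam1 was on none of the 16 arrays. All genes together gave 68.2 ± 0.669% per cerebellum array and 68.9 ± 0.688% per rest-of-brain array. Of the 24 lists, 8 had shares that did not overlap between the parts: granule and Purkinje cells were higher in the cerebellum, and 6 lists were higher in the rest of the brain. The lists share genes with one another.

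Markers of tissue that a dissection may carry along varied between arrays. Choroid plexus and ependymal genes had shares of 43.8 to 71.9% on cerebellum arrays and 68.8 to 75% on rest-of-brain arrays. Of these 32 genes, only Cldn2, a tight junction gene of the choroid plexus, was rest-of-brain-only (on 3 of 4 arrays). Ttr and Folr1 were on all 8 WT arrays and Kl on 2 cerebellum and 4 rest-of-brain arrays. Of 15 pituitary and pineal genes, none was on all 8 arrays, and only Tshb, the thyrotropin beta subunit, met the rule, on 3 cerebellum arrays (not female 2) and no rest-of-brain array, and on 4 and 1 KO arrays. On the WT arrays, Gh was on female 2 and male 2 of both parts, and Prl was on female 2 of both. Pomc was on WT cerebellum female 2 and on WT rest-of-brain female 1, so its replicate numbers differed between the parts. How far choroid plexus or pituitary tissue enters the member counts was not tested.

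Outside the lists, 5 genes on the cerebellum side and 31 on the other had the full pattern in both genotypes, 4 of 4 against 0 of 4 arrays in each. The 5 were Cdk5rap2 (a centrosomal protein), Raly (an RNA-binding protein), Rassf6 (a Ras association domain protein), Tnfrsf12a (the receptor for the cytokine TWEAK) and the predicted gene Gm15666. Cdk5rap2 was read by 3 probe sets and Raly and Tnfrsf12a by 2 each, of which 1 met the rule in each case. For Raly, 1 probe set was on 3 KO cerebellum arrays and the other on 1, so neither held the full pattern in the mutants by itself. With the genes of the lists, 9 and 52 genes had the full pattern in both genotypes at gene level. The first 15 of the 31 by symbol held Junb (a subunit of the AP-1 transcription factor), Crym (a thyroid hormone binding protein), Gem (a small GTP-binding protein), Dlx1as (annotated as antisense to Dlx1), Adgrd1 (an adhesion receptor), Hkdc1 (a hexokinase-like protein), Adam33 (a metalloprotease), Asb11, Calhm5, Cwh43, Dmkn, Krt77, 3110039M20Rik, 9130024F11Rik and B230208B08Rik.

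Many members were a matter of the probe set and not of the gene. The 294 cerebellum-only probe sets comprised 218 with 1 symbol (202 symbols), 5 with several and 71 unnamed here. For 85 of the 202 symbols the gene was detected on all 8 WT arrays through its other probe sets. Of the 355 rest-of-brain-only probe sets, 286 had 1 symbol (277 symbols), 4 several and 65 none, with 128 genes detected on all 8 arrays in the same way. Ebf1, a transcription factor gene of Purkinje cells and of striatal neurons, had 2 cerebellum-only probe sets and 3 detected on all 8 arrays. Csmd1, a large membrane protein gene, had 2 probe sets on all 4 rest-of-brain arrays and no cerebellum array, 1 on all 8 and 1 on none. Sema3e, a secreted semaphorin, had 2 rest-of-brain-only probe sets and 2 on all 8 arrays. These 3 genes were singled out after their calls were seen, and whether their probe sets read different transcripts was not tested. In all, 14 symbols had 2 or more cerebellum-only probe sets, 9 had 2 or more rest-of-brain-only ones, and 0 had probe sets on both sides. A gene read by 1 probe set has no such second reading: 69 of the 104 and 87 of the 124 member genes were of this kind, beside 50.5% of all genes.

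Each sex was also taken alone. The 2 arrays of the gene's own part had to detect it and the 2 of the other part not. Of the 18194 genes, 153 were then cerebellum-only in females and 194 in males, with 21 common (13.7% of the female and 10.8% of the male genes). Females had 223 and males 295 rest-of-brain-only genes, of which 79 were common (35.4% and 26.8%). Cerebellum female 2 is 1 of the 2 female cerebellum arrays, and a difference between the sexes was not tested.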

How the data were processed

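Expression was measured with Affymetrix arrays in the cerebellum and rest of brain of WT and SINE KO mice, and samples were grouped by the titles of the 16 samples. The methods and the submitters' processing notes name the MAS5 algorithm, the results section RMA intensities and LSTNR, and the methods give a human array although the probe sets are of a mouse design. The table as deposited by the authors holds 5 distinct numbers and no intensities. As 4-byte numbers their first byte is 2, 1, 0, -1 or -2 (59.8, 1.52, 37.2, 0.259 and 1.17% of the WT values). Level 2 was taken as detected and level 1 as marginal (not detected), a reading of these scores that no source used here states, so the ANOVA of the methods could not be fitted.

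Gene names came from the platform annotation, updated through Entrez IDs: 34958 probe sets had 1 symbol, 932 several and 9211 none. The members, the gene lists and the tests were chosen with earlier results of these data known. Named genes were up to 8 per list that met the rule, ordered by WT arrays, then KO arrays, then symbol, and up to 15 a side outside the lists with 4 of 4 against 0 of 4 arrays in both genotypes. Tests were Fisher's exact test per probe set with Benjamini-Hochberg adjustment at 0.05 and an exact permutation test of totals, and the rule and tests were checked on simulated calls. Alternatives were marginal calls, 4 of 4 arrays, each array left out, each sex, pairs by number, probe sets of doubtful specificity or with levels below 0 left out, and gene level, the last also varied in itself after the calls were seen. Python 3.11.15 was used with scipy 1.17.1, pandas 2.3.3, matplotlib 3.10.9 and numpy 2.4.6. Expression levels and fold changes were not analysed here.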

Additional observations from a re-analysis of the deposited data

Results flagged for a closer look

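In groups of 4 arrays, a sample far from the others was looked for in 54 sets of values (probe sets detected, 24 gene lists and 2 KO-chosen sets of probe sets, in each brain part), and 12 were found, where chance gives about 1 in 20. In small lists 1 gene can move an array, and tied values among the other 3 make the rule easy to meet.

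Among the cerebellum arrays, female 2 stood apart for KO-chosen rest-of-brain probe sets (38.7% detected, the others 16.2 to 19.3%), forebrain transcription factors (55.4% of genes, the others 46.4%) and cerebellins and their receptors (100%, the others 91.7%). Cerebellum female 1 stood apart for midbrain and hindbrain transcription factors (55.0%, the others 32.5%). On the KO cerebellum arrays this share was 40 to 65%, a range that holds female 1 and not the other WT cerebellum arrays.

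Among the rest-of-brain arrays, female 2 detected 28155 probe sets (the others 26713 to 26933), 73.2% of the forebrain transcription factors (the others 67.9%) and 20% of the pituitary and pineal genes (the others 6.67%). Rest-of-brain male 2 was low for cortical and hippocampal genes (93.2%, the others 94.9%), striatal genes (81.2%, the others 85.4%), glutamate receptors and transporters (88.6%, the others 91.4%) and monoamine, acetylcholine and opioid receptors (59.1%, the others 61.4%). Rest-of-brain female 1 detected 96.3% of the oligodendrocyte genes and the others 100%.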

How the results depend on the processing

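Counts of members depended on how many arrays had to detect them. Which side had more members turned with the arrays used: without any 1 rest-of-brain array there were 348 to 448 cerebellum-only against 213 to 252 rest-of-brain-only probe sets, and 124 to 141 against 82 to 95 genes. With 4 of 4 arrays required there were 68 cerebellum-only and 196 rest-of-brain-only probe sets and 21 and 79 genes. In males alone, with 2 arrays a part, these were 663 and 732 probe sets and 194 and 295 genes, and in females alone the rest-of-brain-only counts were 732 probe sets and 223 genes. At gene level 104 and 124 members were counted in place of 294 and 355 probe sets. With each array left out in turn, cerebellum-only probe sets ranged from 91 to 448 and rest-of-brain-only ones from 213 to 573, and the genes from 28 to 141 and from 82 to 223. Dropping an array of the own side tightens the rule and dropping one of the other side loosens it. The share of members that met the rule on KO arrays ranged from 33.3 to 53.4% for cerebellum-only and from 45.8 to 67.5% for rest-of-brain-only probe sets, and with 4 of 4 KO arrays required it was 32.7% and 42%. Marginal calls counted as detected, probe sets with levels below 0 or of doubtful specificity left out kept these counts within 1.5 times. Fisher's exact test called 0 probe sets under each alternative, with 256 to 530 at an unadjusted p under 0.05 when marginal calls were counted or an array was left out. With so few arrays its smallest possible p put a call almost out of reach, so the 0 is no sign of stability. The deviations of same-numbered arrays were hardly correlated (r -0.0217 in females and 0.047 in males). With 2 arrays for each group this cannot tell if they come from 1 mouse. With the replicate block there were 642 rest-of-brain-only probe sets and 229 genes, the cerebellum-only counts were 413 and 144, the sign test called 0, and the total had an exact p of 0.5. Without cerebellum female 2 the KO share was higher on the cerebellum side (53.4% against 49.9% of probe sets), and 9 of 24 lists did not overlap.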
